A study of Homo sapiens with 4 samples.

Results

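Cisplatin kills cells by crosslinking bases of DNA, and the cell meets these adducts with several repair systems. This account describes the m6A peaks on the mRNAs of 8 genes of those systems, XPA, RPA2, GTF2H5, UVSSA, ERCC5, XRCC1, MSH3 and MSH6, in a cisplatin-resistant and a cisplatin-sensitive lung adenocarcinoma line. The genes were taken by name, and every peak that carries one of these symbols was used. All 8 had a peak in at least 1 of the 2 peak lists, among 7957 genes with a peak in either list, 7031 in A549/DDP and 6453 in A549.

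In nucleotide excision repair a stretch of DNA that carries a bulky adduct is cut out and refilled. XPA and the replication protein A complex, to which RPA2 belongs, verify the lesion and hold the opened strand. The helicase complex TFIIH, of which GTF2H5 is a small subunit, opens the DNA, and ERCC5 (also called XPG) makes the cut on the 3′ side. UVSSA serves the branch of the pathway that is started by a stalled RNA polymerase. XRCC1 is a scaffold that brings DNA ligase III to nicks. In mismatch repair MSH6 and MSH3 are subunits of the complexes that recognise mispaired bases, and the complex with MSH6 also binds platinum adducts.

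The assay was MeRIP-seq, in which RNA fragments are pulled down with an antibody against N6-methyladenosine (m6A) and sequenced beside input RNA, so that a peak marks a stretch of transcript enriched in the pull-down. A549/DDP carries the label of cisplatin-resistant cells (DDP is an abbreviation of cisplatin), and A549, an established line of human lung adenocarcinoma, that of cisplatin-sensitive cells. Both lines were grown in the same serum-containing medium, and the labels name no drug in it. There was 1 immunoprecipitated and 1 input library for each line, 4 libraries in all. The sources used here do not give whether A549/DDP is a single clone or how it was made resistant.

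The A549/DDP list held 32069 distinct peaks and the A549 list 27319, where the same position, strand and exon blocks on several transcripts count once. With 1 library of each kind per line there is no replicate check, and no test between the lines was made. The lists give no read counts, so the depth is unknown, and a scarce transcript, a transcript present in fewer cells and an unmodified transcript cannot be told apart where a peak is missing. Fold enrichment and p of a peak are the authors' own values, and folds of the 2 lists are set side by side without a comparison of height. Most peaks (73.6% in A549/DDP and 72.7% in A549) covered a multiple of 30 exonic bases to within 1 base, so most peak widths differ in such steps. Positions are on hg19 and count from 1. Of 11 lung epithelial markers, 4 had a listed peak in A549/DDP (KRT7, KRT8, KRT18 and MUC1) and 5 in A549 (the same and CDH1). NKX2-1, NAPSA, SFTPB, SFTPC, KRT19 and EPCAM had none in either list. Among markers of other cell types, the fibroblast gene COL1A1 had a listed peak in both lines and the monocyte gene CD14 in A549.

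The first question was which of the 8 mRNAs carried a peak in each line. ERCC5, GTF2H5, XRCC1 and MSH6 were listed in both lines, 4 of 8, where 69.5% of all genes with a peak were. XPA and MSH3 were listed in A549/DDP alone, 2 of 8, against 18.9% of all genes. RPA2 and UVSSA were listed in A549 alone, 2 of 8, against 11.6% of all genes. With 8 genes these counts are a description only. The peaks of the genes listed in 1 line were weak or close to the middle of their list, and when each list was cut to its 13662 strongest peaks by p none of the 4 was listed, while the other 4 genes stayed in both. At a fold of at least 5, in contrast, UVSSA stayed in A549 alone and MSH6 was listed in A549/DDP alone. For MSH6 this rested on a single A549/DDP peak of fold 6.30, on the transcript ENST00000411819.1 of 548 bases. No A549 peak was listed on that transcript, but 71 bases of the peak overlapped an A549 peak of another MSH6 transcript. The folds of the other MSH6 peaks reached only 4.48 in A549/DDP, and the MSH6 folds in A549 reached only 2.71. The shares of all genes listed in 1 line or both under these cuts were not computed. The listings after the cuts therefore describe the 8 genes and do not set them apart from other genes.

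**Figure D1:**
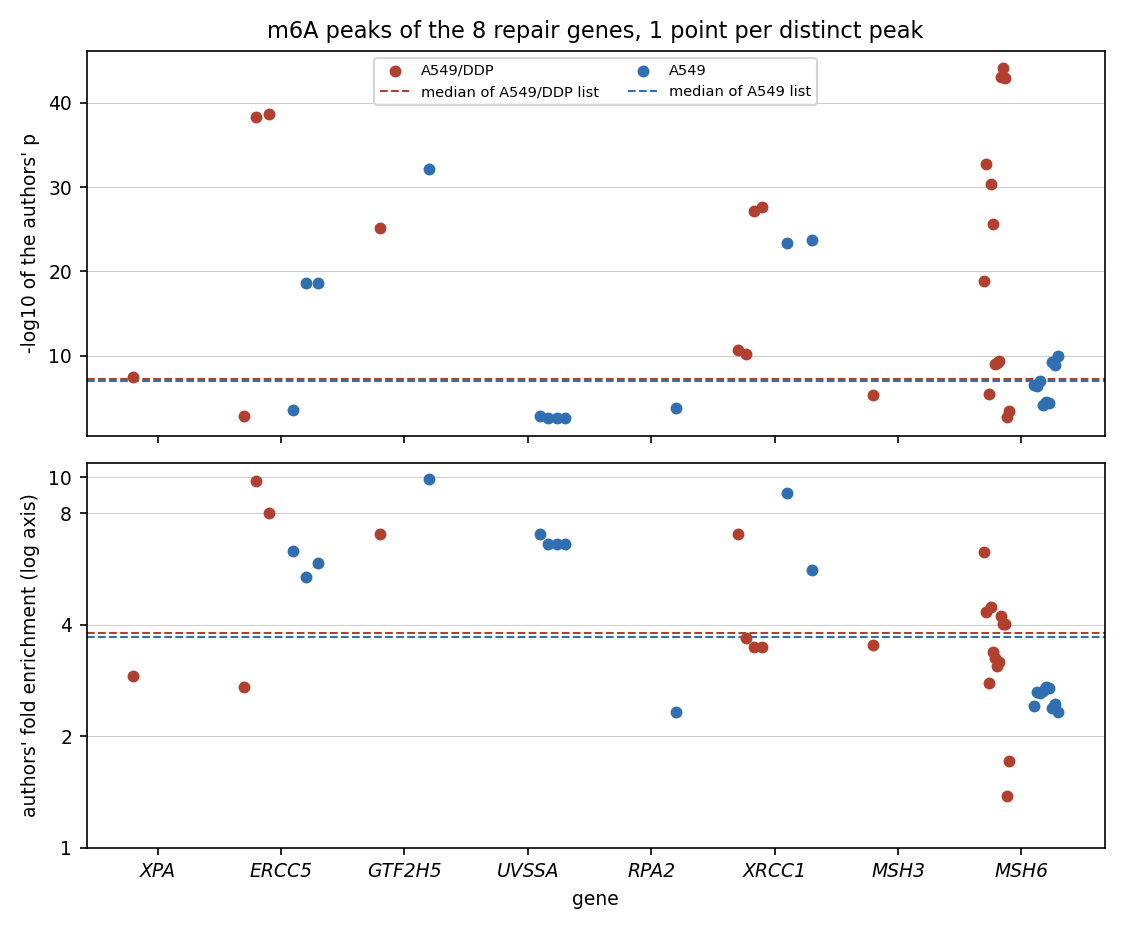
Authors' p of each distinct peak as −log10 (upper panel) and authors' fold enrichment on a log axis (lower panel) for the 8 genes, A549/DDP in red left of A549 in blue, with dashed lines at the median of each list. ERCC5, GTF2H5, XRCC1 and MSH6 have points of both colours, and the points of XPA, MSH3, RPA2 and UVSSA lie near or below the median lines of the upper panel.

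XPA, the lesion verification protein, had a single peak in A549/DDP and none listed in A549. The A549/DDP peak lay in the coding sequence, in 3 exon blocks with 266 exonic bases (chromosome 9, 100437752 to 100449407, minus strand, transcript ENST00000375128.4). Its fold was 2.91 and its p 3.16e-08, and 49.0% of the peaks of the A549/DDP list had a smaller p. It was the only peak among those of the 4 genes listed in 1 line that passed its list's median p.

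RPA2, the middle subunit of replication protein A, had no peak listed in A549/DDP and a single peak in A549. The A549 peak covered 119 bases of the 3′ UTR (chromosome 1, 28218065 to 28218183, minus strand). The fold was 2.32 and the p 0.000145, with 77.3% of A549 peaks stronger by p.

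UVSSA, the transcription-coupled repair factor, likewise had no peak listed in A549/DDP, and had peaks in A549. Its 5 rows in the A549 list, 1 for each of 5 transcripts, came to 4 distinct peaks of 60 to 90 bases, and all lay within a single stretch of 90 bases across the stop codon (chromosome 4, 1379704 to 1379793, plus strand). The folds were 6.61 to 7.02, above the list's median of 3.72, but the p-values were 0.00148 to 0.0024, and at least 94% of A549 peaks were stronger by p. The pair of fold and p at 3 of these peaks was also that of 36 peaks in 32 other genes, and the pair at the other was that of 75 peaks in 57 other genes. UVSSA thus combined a high fold with a p near the end of its list. A pair that no other gene had was held by 60.1% of peaks in A549/DDP and 61.9% in A549.

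MSH3, a recognition subunit for small loops of unpaired bases, had a single peak in A549/DDP and none listed in A549. It covered 180 bases across the stop codon (chromosome 5, 80171592 to 80171771, plus strand). The fold was 3.52 and the p 4.47e-06, and 62.3% of A549/DDP peaks were stronger by p. Its pair of fold and p recurred at 6 peaks of 5 other genes.

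The second question was how far the peaks of the lines lay at the same place. The 8 genes held 23 distinct peaks in A549/DDP and 20 in A549. Of the A549/DDP peaks, 18 (78.3%, 95% exact binomial interval 56.3 to 92.5) shared 1 or more exonic bases with an A549 peak on that strand, where 67.2% of all A549/DDP peaks did. Of the A549 peaks, 15 (75%, 50.9 to 91.3) did so with an A549/DDP peak, where 78% of all A549 peaks did. The intervals cover counting error only and contain the shares of the whole lists. They are too narrow, since peaks of overlapping transcripts of 1 gene are not independent, and MSH6 alone held 13 of the A549/DDP and 9 of the A549 peaks. Joined across both lists by overlap, the peaks formed 12 sites, 7 of them in both lines, 3 in A549/DDP alone and 2 in A549 alone. Joined sites were not counted over all genes, so whether these numbers are usual is unknown.

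GTF2H5, the smallest TFIIH subunit, had the same peak in both lines to the base. It covered 330 bases of the 3′ UTR on a transcript of 7481 bases (chromosome 6, 158613225 to 158613554, plus strand). Its fold was 7.04 with a p of 7.94e-26 in A549/DDP, and 9.91 with a p of 7.94e-33 in A549. Such identity of all covered bases was found for 174 of 5527 genes listed in both lines (3.15%).

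ERCC5, the 3′ endonuclease, had 2 sites, and both were in both lines. The strong site crossed the stop codon (chromosome 13, plus strand), from 103527778 to 103528345 in A549/DDP and from 103527748 to 103528345 in A549. The lists ended it at the same base, the A549 peak began 30 bases further upstream, and 95% of the bases covered in either line were covered in both. Folds were 9.77 and 8.02 on the 2 transcripts in A549/DDP, with p-values of 5.01e-39 and 2e-39, and 5.40 and 5.86 in A549, both with a p of 2.51e-19. The weak site was coding, with 180 bases in A549/DDP (103514794 to 103514973, fold 2.71, the authors' p = 0.00135) and 61 of these bases in A549 (103514853 to 103514913, fold 6.33, the authors' p = 0.000282). At the weak site the pair of fold and p recurred in 23 other genes in A549/DDP and in 35 in A549. The readthrough gene BIVM-ERCC5 is listed at the weak site too, in both lists, so that these peaks cannot be assigned to ERCC5 alone.

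XRCC1, the single-strand break scaffold, differed in how its peaks were divided. In A549/DDP the transcript ENST00000262887.5 had 2 separate peaks (chromosome 19, minus strand). A peak of 210 bases crossed the stop codon (44047430 to 44047639, fold 7.04, the authors' p = 2e-11), and a peak of 269 bases in 4 blocks lay upstream in the coding sequence (44048350 to 44050783, fold 3.49, the authors' p = 6.31e-28). In A549 a single peak on the same transcript ran through 6 exon blocks with 657 bases, from the coding sequence into the 3′ UTR (44047430 to 44050813, fold 9.09, the authors' p = 3.98e-24). All 479 bases covered in A549/DDP were also covered in A549, and 178 further bases were covered in A549, between and beside the A549/DDP peaks. The peaks covered 17.1% of this transcript of 2802 bases in A549/DDP and 23.4% in A549.

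XRCC1 also shows that a fold belongs to a peak on a given transcript and not to the site. On the shorter transcript ENST00000543982.1 the stop codon peak of A549/DDP had a fold of 3.69 at nearly the same bases as the peak of fold 7.04, and the A549 peak had 5.63 in place of 9.09. Where overlapping peaks of 1 gene stood in 1 list, the highest fold was more than 1.5 times the lowest in 17.9% of such regions in A549/DDP and in 14.8% in A549.

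MSH6, the mismatch recognition subunit, had the most peaks, 13 distinct peaks on 5 transcripts in A549/DDP and 9 on 3 transcripts in A549, at 4 sites on the plus strand of chromosome 2. At 3 coding sites both lines had peaks, and the A549 peaks lay almost wholly inside those of A549/DDP. The first site spanned an exon junction in A549/DDP, from 48023095 to 48026167 with 526 bases under 5 peaks, whose folds were 2.79 to 6.30 and whose smallest p was 2e-33. In A549 it was confined to 229 bases on the 3′ side of that junction (48025802 to 48026030), with folds of 2.42 to 2.64 and a smallest p of 9.33e-08. For the transcript ENST00000538136.1 the lists label this site as touching the 5′ UTR, and for the others as coding.

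The second MSH6 site held 308 bases in A549/DDP (48026488 to 48026795, folds 3.10 to 3.26, smallest p 4.17e-10). In A549 it held 158 of these bases (48026518 to 48026675, folds 2.65 to 2.71, smallest p 2.63e-05). The third was the MSH6 site of smallest p in both lines, though not of highest fold, and of the 4 it coincided closest, with 87.8% of the bases covered in either line covered in both. It ran from 48027889 to 48030657 with 505 bases in A549/DDP (folds 4.01 to 4.23, smallest p 7.94e-45) and from 48027884 to 48030600 with 453 bases in A549 (folds 2.33 to 2.45, smallest p 1e-10). The fourth site, in the 3′ UTR, was listed in A549/DDP alone and was weak (48034024 to 48034130, folds 1.38 and 1.72, smallest p 0.000324).

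**Figure D2:**
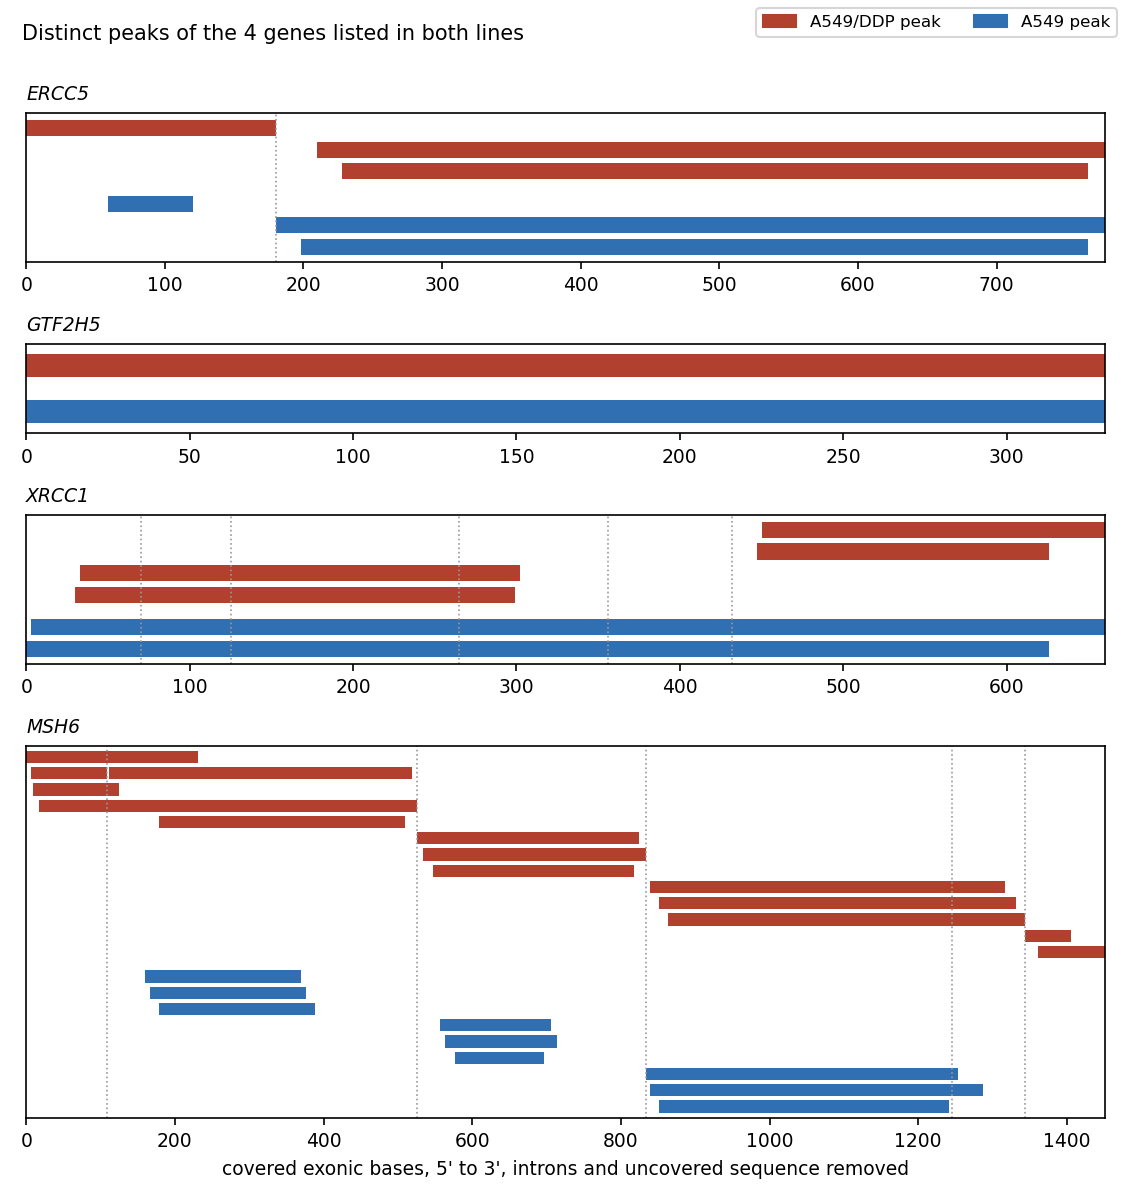
Distinct peaks of ERCC5, GTF2H5, XRCC1 and MSH6, A549/DDP in red above A549 in blue, 1 row per peak, along the exonic bases covered in either list from 5′ to 3′; dotted lines mark where introns or uncovered sequence were removed. GTF2H5 peaks are identical, XRCC1 has 2 separate peaks per transcript in A549/DDP that a single A549 peak spans, and the A549 peaks of MSH6 lie within those of A549/DDP except for 5 bases.

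Over the whole of each mRNA, peaks covered 1446 exonic bases of MSH6 in A549/DDP and 840 in A549, a ratio of 1.72, and 99.4% of the A549 bases were covered in A549/DDP too. A share of at least 99% was found for 30.7% of the genes listed in both lines. The ratios were 1.14 for ERCC5 (748 and 659 bases), 1 for GTF2H5 (330 in each) and 0.735 for XRCC1 (485 and 660). Among all 5527 genes listed in both lines the median ratio was 1.09, the middle 50% lay between 0.828 and 1.54, and 56.7% had more bases covered in A549/DDP. A lower ratio than that of MSH6 was found in 79.5% of genes, and a lower one than that of XRCC1 in 19.2%. All 4 ratios lay between the 10th and the 90th percentile of these genes (0.562 and 2.49).

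**Figure D3:**
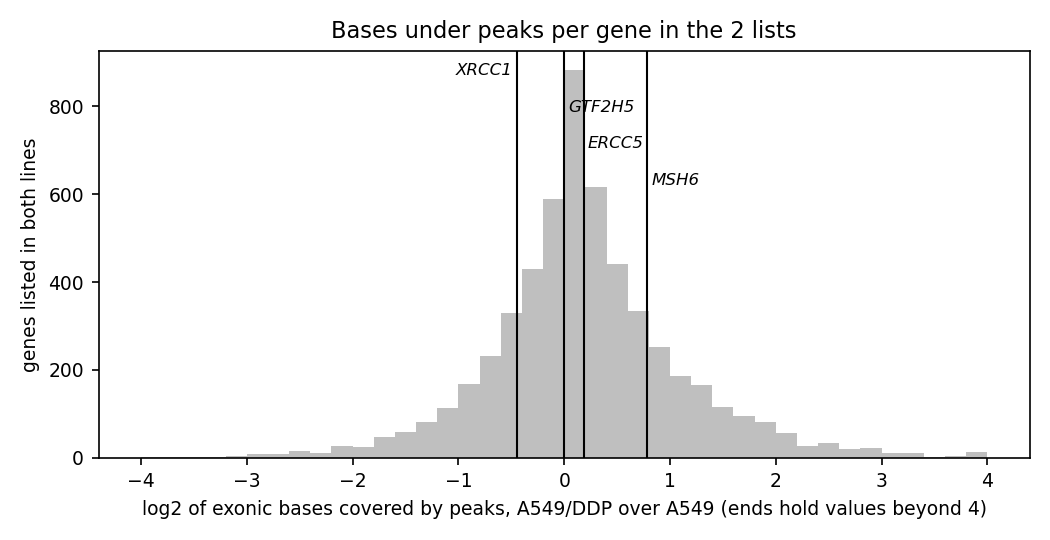
Histogram over genes listed in both lines of the log2 ratio of exonic bases covered by peaks, A549/DDP over A549, with vertical lines at the 4 repair genes. MSH6 lies on the A549/DDP side (ratio 1.72) and XRCC1 on the A549 side (ratio 0.735), both inside the bulk of the distribution.

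The third question was where along the mRNA the peaks lay. In A549/DDP 20 of 23 peaks touched coding sequence, 8 a 3′ UTR and 1 a 5′ UTR, where 65.2%, 50.4% and 13.6% of all A549/DDP peaks did. In A549 17 of 20 touched coding sequence, 10 a 3′ UTR and 1 a 5′ UTR, where 64.5%, 56% and 8.42% of all A549 peaks did. Without MSH6, 9 of 10 A549/DDP peaks touched coding sequence and 6 of 10 a 3′ UTR, and in A549 9 of 11 and 10 of 11. Peaks across the stop codon, in coding sequence and 3′ UTR at once, numbered 5 of 23 in A549/DDP and 8 of 20 in A549, where 19.4% and 22.4% of all peaks were such. Overlapping peaks on several transcripts of 1 gene are counted separately here. The A549 peaks across the stop codon lay at 1 site each of UVSSA (4 peaks), ERCC5 (2) and XRCC1 (2). Those of A549/DDP lay at 1 site each of ERCC5, XRCC1 and MSH3, so the counts show no excess of such sites in A549. Peaks confined to the 3′ UTR were found in GTF2H5, RPA2 and, in A549/DDP, MSH6. XPA had a coding peak only. The 5′ UTR label arose solely at the first MSH6 site.

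The last question was how the other genes of these repair systems were listed. Of 81 genes of nucleotide excision repair, mismatch repair and single-strand break or base excision repair, the 8 included, 52 had a peak. A549/DDP was the sole line for 5 of them (9.62%), A549 for 4 (7.69%), and 43 were listed for both (82.7%, against 69.5% of all genes). Without the 8 genes, 44 of 73 had a peak, 39 of them in both lines (88.6%), 3 only in the A549/DDP list and 2 only in the A549 list. The lists were chosen with earlier results of these data known, and the share is a description.

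In mismatch repair the exonuclease gene EXO1 had no listed peak. PMS1 was in both lines at overlapping coding peaks, with a fold of 7.69 in A549/DDP (the authors' p = 2.51e-12) and of 4.54 in A549 (the authors' p = 0.00141). PMS2 was in both too (the authors' p = 4.07e-05 in A549/DDP and 0.000794 in A549), but its peaks in the 2 lists had only 1 base in common. MLH3 was listed in both lines, but its peaks did not overlap. MSH6 had the peak of smallest p among the mismatch repair genes in each line.

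In nucleotide excision repair the 3 incision genes were in both lines. ERCC1, the partner of the 5′ nuclease ERCC4, had 6 peaks in each line. Its strongest peak, which reached from coding sequence into the 3′ UTR, had a fold of 5.96 in A549/DDP (the authors' p = 3.16e-62) and of 7.49 in A549 (the authors' p = 6.31e-80). ERCC4 had a single peak in each line, at different coding sites that did not overlap (the authors' p = 5.01e-10 in A549/DDP and 0.00389 in A549). Of 10 TFIIH genes, 5 had peaks and all 5 were in both lines. GTF2H3 had folds of 30.5 in A549/DDP and 21.5 in A549 in its 3′ UTR, GTF2H1 had 3.87 and 2.68, and ERCC2, a helicase of the complex, had 4.48 and 3.14 at strongest peaks that lay in the 3′ UTR in A549/DDP and across the stop codon in A549.

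Damage recognition genes had a peak for 10 of 13 members. DDB1 (folds 2.94 in A549/DDP and 2.07 in A549) and DDB2 (2.00 and 2.90), the subunits of the UV-damaged DNA binding complex, were in both lines. RBX1, a ring finger subunit of cullin ubiquitin ligases, joined XPA in A549/DDP alone (fold 2.74, the authors' p = 0.000501), and RPA2 was the 1 gene in A549 alone. RPA1, the largest subunit of replication protein A, was in both lines and RPA3 in neither. In transcription-coupled repair USP7, a deubiquitinase that acts with UVSSA, had in both lines a peak that reached from its 5′ UTR into coding sequence (folds 16.4 and 16.5). XAB2 (4.48 and 7.98) and ELOF1 (2.54 and 2.09) were also in both, and ERCC8 and STK19 in neither.

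Of the genes of gap filling and ligation, POLE3 (folds 7.24 and 4.98), POLD4 (3.24 and 3.90) and LIG1 (4.23 and 5.69) ranked highest by the p of the weaker line, and RFC2 had a weak peak in A549 alone (fold 9.91, the authors' p = 0.00479). PCNA, the sliding clamp, had none listed. Around XRCC1, its ligase LIG3 was in both lines. The DNA glycosylase MBD4 was in A549/DDP alone with 9 distinct peaks (smallest p 3.02e-07, fold 3.58). FEN1 (folds 3.81 and 2.60), NTHL1 (15.8 and 12.4) and PARP1 (3.14 and 2.89), the sensor that recruits XRCC1, ranked highest here by the p of the weaker line.

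Among the 43 repair genes listed in both lines, ERCC4, MLH3 and POLD1 had no base under peaks of both lists, 40 did (PMS2 by 1 base only), and over all genes 95.5% did. More bases were covered in A549/DDP for 28 of the 43, in A549 for 11, and equally for 4. Over all genes listed in both lines, 56.7% had more bases covered in A549/DDP. The median ratio was 1.26 for the repair genes and 1.09 over all genes, and the difference was not tested.

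**Figure D4:**
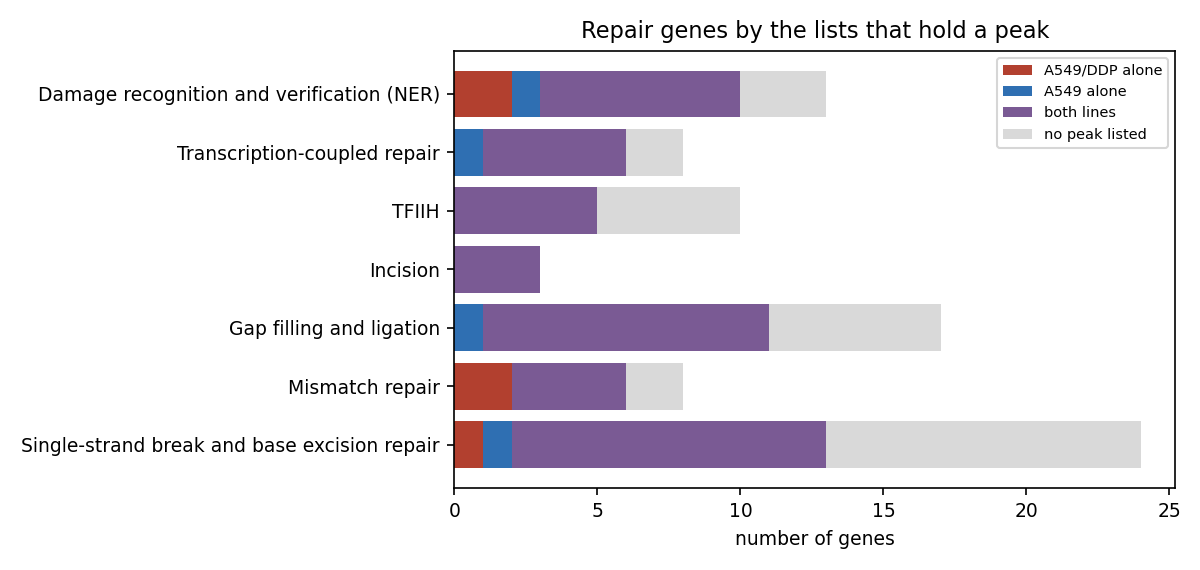
Number of genes of each repair list with a peak in A549/DDP alone (red), in A549 alone (blue), in both lines (purple) or with no peak listed (grey). Genes in both lines make up the larger part of the listed genes in each of the 7 lists, and all listed TFIIH and incision genes are in both.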

How the data were processed

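MeRIP-seq was made from 1 immunoprecipitated and 1 input library of each line. Per the submitters' processing notes, HISAT2 was the aligner and hg19 the genome build. The sources used here do not give the peak caller, its cutoff or the scaling of libraries. The authors deposited 1 peak list per line, and each was taken as made from both libraries of that line. The fold enrichment of a peak is a linear ratio deposited by the authors, and its p-value is likewise deposited, with adjustment not stated. Transcript lengths are given per the file headers.

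Rows were reduced to distinct peaks with Python 3.11.15 and pandas 2.3.3. Overlaps were counted in exonic bases on the same strand, with a minimum of 1 base. The code was checked on regions of the A549 list altered to give known overlaps, and against a direct count of pairs. Where a position had several values, that of smallest p was kept. Exact binomial 95% intervals came from scipy 1.17.1. Gene names are those of the lists, and all 8 are current symbols in RefSeq of GRCh38.p14. Other repair genes were named if listed in 1 line alone, or as the 3 of each list whose weaker line had the smallest p, and some of these are not reported here. A few others (EXO1, PCNA, RPA1, RPA3, LIG3, ERCC8, STK19, POLD1) were named after their values were seen. Members and lists were chosen with earlier results of these data known. Alternatives were stricter overlap, outer ends, merged regions, list rows, cuts by fold or p, an equal number of peaks, and older gene names.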

Additional observations from a re-analysis of the deposited data

How the results depend on the processing

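Of 96 values recomputed under the alternatives, 53 stayed within 1.5 times the main count or inside the interval of the main share, and 43 did not. Of the 16 values recomputed under each cut, 12 moved at a fold of at least 5 and 12 at the median p. With an equal number of strongest peaks 11 of 16 moved, and with merged regions 6 of 10. Some moved values rose, such as the number of repair genes listed in A549/DDP alone, and why the values moved was not tested. Limited to peaks at or below the median p of their list, the share of overlapping peaks was 55.6% in A549/DDP and 100% in A549. There A549/DDP kept 5 peaks of the 8 genes in a 3′ UTR, and A549 kept 8 peaks in all (7 coding, 5 in a 3′ UTR, 0 in a 5′ UTR). Of the 8 genes, 1 (XPA) was then listed in A549/DDP alone and 0 in A549 alone, and of the 81 repair genes 13 in A549/DDP alone, 25 in both lists and 1 in A549 alone. This cut kept 16041 peaks of A549/DDP and 13662 of A549. Neither the shares of all genes nor the overlap shares of all peaks were computed under this and the following cuts. The counts of genes and the overlap shares under these cuts are therefore no result about repair genes. With each list cut to its 13662 strongest peaks, A549/DDP kept 5 peaks in a 3′ UTR, and A549 kept 8 in all (7 coding, 5 in a 3′ UTR, 0 in a 5′ UTR), of which 100% overlapped. Then 0 of the 8 genes were listed in A549/DDP alone and 0 in A549 alone, and 9 repair genes were in A549/DDP alone, 24 in both lists and 2 in A549 alone. At a fold of at least 5, A549/DDP kept 5 peaks (4 coding, 4 in a 3′ UTR, 0 in a 5′ UTR) and A549 10 (9 coding, 0 in a 5′ UTR), and 50% of the A549 peaks overlapped. There 1 of the 8 genes was listed in A549/DDP alone, MSH6, whose folds in A549 reached only 2.71, and 1 in A549 alone, UVSSA. MSH6 passed this cut in A549/DDP through a single peak of fold 6.30 on a transcript of 548 bases. Of the repair genes 7 were then in A549 alone and 16 in both, and at a fold of at least 2 there were also 7 in A549 alone.

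Merged regions numbered 11 in A549/DDP (9 coding, 5 in a 3′ UTR) and 9 in A549 (7 coding, 5 in a 3′ UTR), since peaks on several transcripts then count once. Where overlap had to cover at least 50% of both peaks, 43.5% of A549/DDP peaks (10 of 23) counted as shared. In A549 the share was 55% (11 of 20), and it fell in both lines, from 78.3% in A549/DDP and 75% in A549. The shares of all peaks were not computed under this rule, so neither value can be set against its whole list. Leaving out MSH6 under the 1-base rule was an alternative chosen after seeing the data. It gave shares of 80.0% in A549/DDP and 54.5% (6 of 11) in A549, where 67.2% and 78% of all peaks overlapped. Both shares lie inside the main intervals. That is no test, since the intervals are wide and were made from the same peaks. The A549 peaks without overlap were those of UVSSA and RPA2. The other rules for overlap, list rows and older gene names moved none of their values beyond these bounds. For shares the bounds are wide, so a share inside them can still differ much from the main share. No paired analysis was possible because each line has 1 library of each kind and no test was made. The lists hold no read counts, so what the depth of either line would allow to be detected is unknown.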
